A study of Takifugu fasciatus with 6 samples.

Results

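In the liver of the pufferfish Takifugu fasciatus, 6 enzymes that make, remove or use glyoxylate and glycine were followed through a fall in water temperature. They were HAO1, AGXT, GRHPR, glyctk, AMT and SHMT2. The 6 names were chosen with earlier results of these data known. Genes were then picked by name. The Swiss-Prot entry that each gene matched had to carry one of these 6 names, with capitals ignored and a final a or b allowed. This gave 9 genes out of 20990 in the table, all of which had enough reads to be tested. HAO1, glyctk and AMT matched 1 gene each, and AGXT, GRHPR and SHMT2 matched 2 genes each.

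The 6 libraries were made from livers of juvenile fish, and each pooled the livers of 6 fish. All fish were acclimated at 26 °C for 2 weeks. The control group (CG; libraries G1, G2 and G3) stayed at 26 °C. The experimental group (EG; Ga, Gb and Gc) was cooled to 19 °C, held there for 12 h, then cooled to 12 °C and held for 24 h before dissection. The fish lived in 6 aquaria, 3 of them cooled, so p-values measure the spread between pools of fish and possibly between aquaria. The day of library work is not given in the sources used here, and a day that followed the groups cannot be told apart from temperature. Whole livers were sequenced, so fewer cells of a type and less RNA per cell cannot be told apart.

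Glyoxylate is a small, reactive acid. In the mammalian liver it is made in peroxisomes from glycolate, an aminotransferase turns it into glycine, and a reductase returns it to glycolate. Glyoxylate that escapes these routes can be oxidised by lactate dehydrogenase to oxalate, and inherited loss of AGXT or GRHPR causes primary hyperoxaluria in humans. Glycine is split in mitochondria by the glycine cleavage system or exchanged with serine by serine hydroxymethyltransferases, and both reactions pass one-carbon units to folate.

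The libraries held between 31150888 and 45548824 counts. The first principal component of log2 CPM took 66.5% of the variance and separated EG from CG, and the second, with 13.8%, set Gb apart from Ga and Gc. Of 14357 tested genes, 3113 were lower and 3398 were higher in EG at an adjusted p under 0.05 (edgeR quasi-likelihood test, Benjamini-Hochberg adjustment). Higher genes were 52.2% of these calls with TMM scaling, 51.9% with DESeq2, 40.0% with upper quartile factors, 31.0% with library totals, 29.2% and 29.5% with limma on FPKM, and 27.4% with libraries scaled to hepatocyte markers. Over the whole tested table the middle log2 fold change was -0.03 with TMM scaling and -0.37 with library totals, so that scaling alone shifts every gene.

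Among the 9 genes, 7 fell in EG, none rose and 2 did not pass the test. The background was 21.7% of tested genes lower and 23.7% higher. At an unadjusted p under 0.05 the edgeR test had 8 of the 9 lower and 0 higher, and DESeq2 called 7 lower and 0 higher. HAO1, AMT, glyctk and the more abundant AGXT gene fell by more than 2-fold. A fall of that size was called for 15.4% of tested genes and a rise of that size for 13.7%. All EG libraries lay below all CG libraries for 8 of the 9 genes, as they did for 28.8% of tested genes, and the groups overlapped for 1 gene. All EG libraries lay above all CG libraries for 29.0% of tested genes, which makes 57.8% with groups apart on either side. The median log2 fold change of the 9 genes was -0.95. The genes lower in EG had a median of -1.37 over the whole table, and HAO1 had rank 990 of the tested genes when they were ordered from the lowest log2 fold change.

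**Figure D1:**
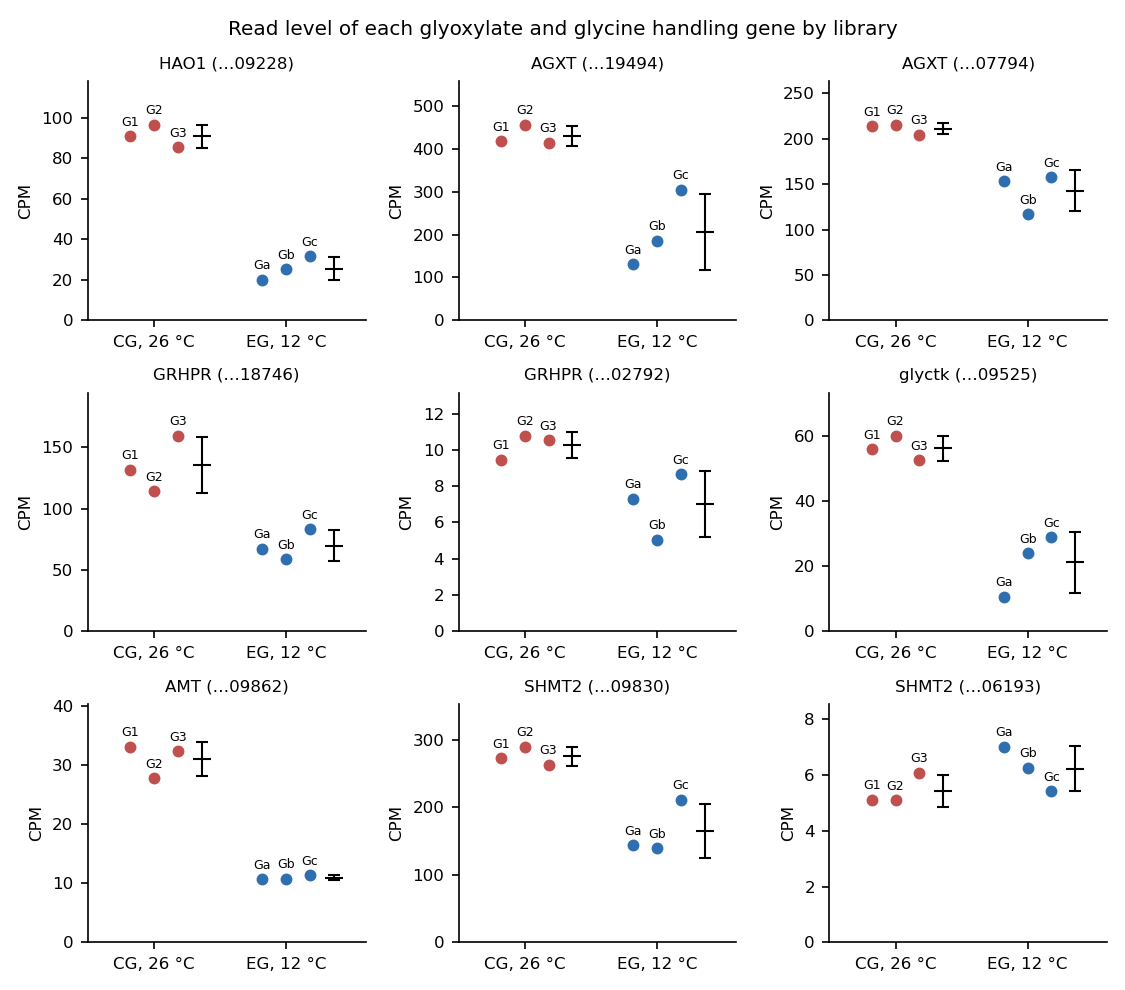
Read level in CPM (counts scaled to a common library size, y axis from 0) of each of the 9 genes in each library, with CG in red, EG in blue and the group mean ± SD (n = 3) in black; the digits in each title end the gene identifier. All EG points sit below all CG points in 8 panels, and the groups overlap only for the SHMT2 gene of the last panel.

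HAO1, the peroxisomal oxidase that turns glycolate into glyoxylate and releases hydrogen peroxide, had the lowest log2 fold change of the 9 genes. Its gene, fugu_GLEAN_10009228, lies on scaffold 41 from base 400431 to 404599 of the minus strand. The level was 90.8, 96.6 and 85.4 CPM in G1, G2 and G3, and 20.0, 25.2 and 31.6 CPM in Ga, Gb and Gc. Every EG pool was thus far under the lowest CG pool. The mean fell 3.55-fold, from 90.9 ± 5.63 to 25.6 ± 5.78 CPM (SD, n = 3), with a log2 fold change of -1.83 (SE 0.19) and an adjusted p of 0.00026. Scaled for gene length, HAO1 dropped from rank 720 to rank 2459 of all genes by mean FPKM.

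AGXT moves an amino group from alanine to glyoxylate, which gives glycine and pyruvate, and in some mammals it also works on serine. Its more abundant gene, fugu_GLEAN_10019494 (scaffold 10, 5068508 to 5071056, minus strand), was at 418, 456 and 413 CPM in CG. In Ga, Gb and Gc it was at 131, 186 and 304 CPM. The groups were apart, and the EG pools were spread more than 2-fold among themselves. The mean went from 429 ± 23.5 to 207 ± 88.5 CPM (log2 fold change -1.05, SE 0.28, adjusted p 0.018). The adjusted p was 0.060 without G2 and 0.052 without Gb, and it ran from 0.0012 to 0.060 over all 13 alternatives. The fall was just short of 2-fold without G2 (log2 fold change -0.996) and without Gb (-0.97), and smaller without Ga (-0.80).

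The other AGXT gene, fugu_GLEAN_10007794 (scaffold 36, 103840 to 112682, plus strand), changed less. Beyond its Swiss-Prot match, its function terms were hydrolase activity and catalytic activity. It was 1908 bases long, against 1236 for fugu_GLEAN_10019494, so its name is less certain. Function terms were loose for other genes too. Those of fugu_GLEAN_10019494 held carboxy-lyase activity and no aminotransferase. The GRHPR gene fugu_GLEAN_10002792 had receptor activity beside oxidoreductase activity, and the SHMT2 gene fugu_GLEAN_10006193 had a membrane term beside transferase activity. The second AGXT gene was at 213, 215 and 204 CPM in CG and at 153, 117 and 158 CPM in EG, with no overlap. The mean fell 1.48-fold, from 211 ± 5.97 to 143 ± 22.3 CPM (log2 fold change -0.56, SE 0.16, adjusted p 0.021). This call was lost without G1 (adjusted p 0.064) and without G2 (0.070), in a range from 0.0011 to 0.070 over the alternatives. The 2 genes also shifted against each other: fugu_GLEAN_10019494 gave 75.1% to 76.6% of the AGXT FPKM in CG, and 56.8%, 71.0% and 74.8% in Ga, Gb and Gc. The share in Gc was close to that of the CG pools, and only Ga was far below them. Whether reads were split between the AGXT genes by the counting cannot be read from the table, and the same holds for the GRHPR and SHMT2 pairs.

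GRHPR reduces glyoxylate to glycolate and hydroxypyruvate to D-glycerate. The gene fugu_GLEAN_10018746 (scaffold 29, 961341 to 963519, plus strand) carried between 88.4% and 92.6% of the GRHPR FPKM in every library. It was at 132, 114 and 160 CPM in CG and at 67.5, 58.7 and 83.4 CPM in EG, again without overlap. The mean fell 1.94-fold, from 135 ± 22.8 to 69.9 ± 12.5 CPM (log2 fold change -0.95, SE 0.19, adjusted p 0.0049).

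The minor GRHPR gene, fugu_GLEAN_10002792 (scaffold 92, 78394 to 80026, plus strand), rested on 159 to 464 counts per library. It was at 9.45, 10.8 and 10.5 CPM in CG and at 7.31, 5.05 and 8.66 CPM in EG. The groups did not overlap, yet the gene missed the threshold (log2 fold change -0.55, SE 0.22, adjusted p 0.076). It was past the threshold with library totals (-0.90, adjusted p 0.0091) and without Gc (-0.72, adjusted p 0.038). It also passed with upper quartile factors (adjusted p 0.030), hepatocyte scaling (0.0063) and both limma settings (0.0068 and 0.0071). The adjusted p ran from 0.0063 to 0.20 over the alternatives.

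D-glycerate, which GRHPR forms from hydroxypyruvate, is phosphorylated by glycerate kinase, the product of glyctk. The gene fugu_GLEAN_10009525 (scaffold 272, 1310956 to 1312814, plus strand) was at 55.8, 60.0 and 52.4 CPM in CG. In EG it was at 10.6 CPM in Ga, 23.9 in Gb and 28.9 in Gc. The highest EG pool stayed well under the lowest CG pool, and Ga was the lowest of all. The mean fell 2.65-fold, from 56.1 ± 3.79 to 21.1 ± 9.43 CPM (log2 fold change -1.41, SE 0.32, adjusted p 0.0091).

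AMT is the T-protein of the mitochondrial glycine cleavage system, which passes a methylene group to tetrahydrofolate and frees ammonia. Its gene, fugu_GLEAN_10009862 (scaffold 13, 1623611 to 1627764, minus strand), was at 33.1, 27.7 and 32.3 CPM in CG. The EG pools were nearly equal, at 10.6, 10.8 and 11.4 CPM. AMT was the only one of the 9 genes whose coefficient of variation was smaller in EG than in CG. It was larger in EG for 69.1% of all tested genes. The mean fell 2.84-fold, from 31.1 ± 2.90 to 10.9 ± 0.389 CPM, and the adjusted p of 0.00017 was the smallest of the 9 (log2 fold change -1.51, SE 0.14).

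SHMT2 is the mitochondrial serine hydroxymethyltransferase, which interconverts serine and glycine. The gene fugu_GLEAN_10009830 (scaffold 13, 1174277 to 1178203, plus strand) held at least 95.4% of the SHMT2 FPKM in each library. It was at 273, 290 and 263 CPM in CG and at 144, 139 and 211 CPM in EG. The groups were apart, with Gc closest to the CG pools. The mean fell 1.67-fold, from 275 ± 13.5 to 165 ± 40.3 CPM (log2 fold change -0.74, SE 0.19, adjusted p 0.014), and the adjusted p was 0.058 without G2 in a range from 0.0016 to 0.058. This gene and AMT share a scaffold, with 445407 bases and 33 genes between them.

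The minor SHMT2 gene, fugu_GLEAN_10006193 (scaffold 313, 96012 to 105175, plus strand), was the exception in direction. It was at 5.11, 5.09 and 6.08 CPM in CG and at 7.01, 6.26 and 5.41 CPM in EG, so that Gc lay inside the CG range. It did not pass the test (log2 fold change 0.20, SE 0.20, adjusted p 0.44), and the sign turned with library totals (-0.14).

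**Figure D2:**
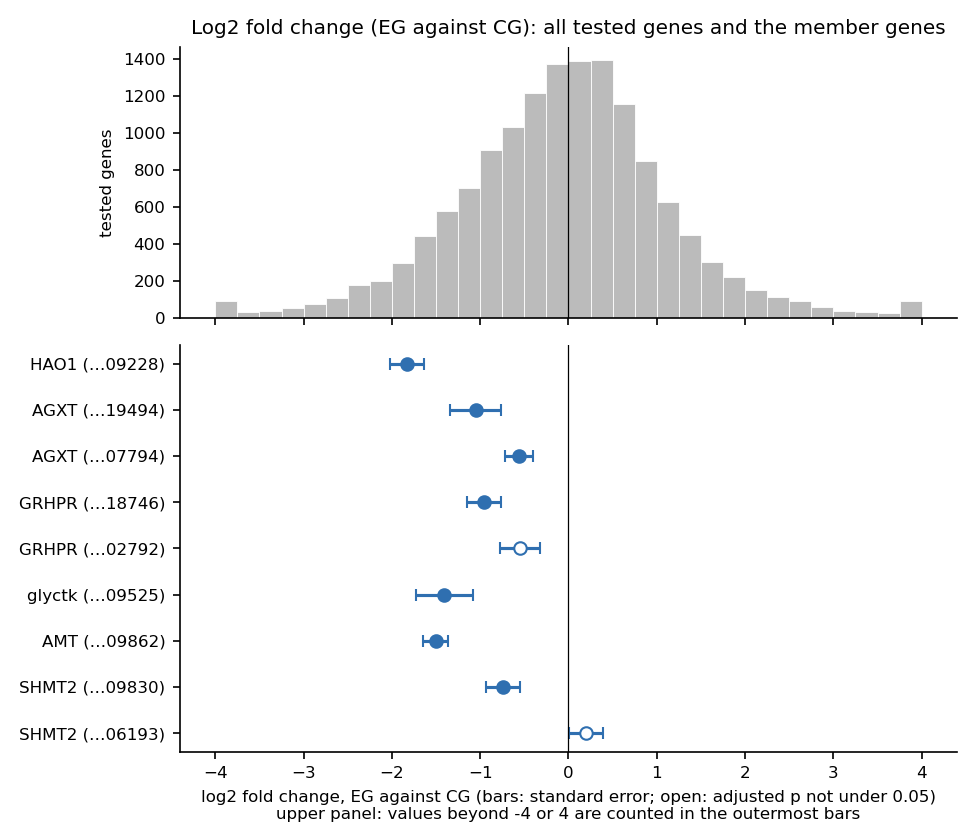
Upper panel: number of tested genes (y axis) by log2 fold change of EG against CG (x axis). Lower panel: the same measure for the 9 genes with its standard error, filled where the adjusted p was under 0.05; 7 filled points lie between -1.83 and -0.56, and both open points belong to the minor GRHPR and SHMT2 genes.

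The table gave a KEGG entry for 6 of the 9 genes, 1 for each enzyme name. All 6 of these fell, and of the 3 genes with no KEGG entry only the second AGXT gene did. The 6 were also the only or the more abundant gene of each name. The shares of all tested genes with and without a KEGG entry that fell were not taken, so no link to the entry can be read from this. Among the EG pools, Gc was the highest for 8 of the 9 genes, and for each of the 7 that fell. Over all 3113 falling genes Gc was the highest EG pool in 41.7%. Ga was the lowest EG pool for 4 of the 9 genes and Gb for 4. The median coefficient of variation of the 9 genes was 6.76% in CG and 22.6% in EG, against 14.7% and 23.2% over all tested genes.

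The order of the levels was read from FPKM, which allows for gene length. In CG the AGXT gene fugu_GLEAN_10019494 stood first at 390 ± 12.7 FPKM (SD, n = 3), followed by SHMT2 (fugu_GLEAN_10009830) at 237 ± 6.28 and GRHPR (fugu_GLEAN_10018746) at 141 ± 26.7. The second AGXT gene at 124 ± 2.01 FPKM overlapped the range of GRHPR. HAO1 (93.3 ± 3.76 FPKM), glyctk (40.2 ± 1.83), AMT (27.9 ± 3.15), the minor GRHPR gene (13.0 ± 0.827) and the minor SHMT2 gene (4.598 ± 0.562) then followed with no overlap between neighbours. In EG the ends of this order were as in CG, but neighbours ran together. AGXT at 150 ± 64.2 FPKM overlapped SHMT2 at 112 ± 26.5, and the second AGXT gene at 66.1 ± 6.39 overlapped GRHPR at 57.3 ± 8.95. HAO1 (20.9 ± 5.26 FPKM) stood clear of GRHPR but overlapped glyctk (12.2 ± 5.74). AMT (7.77 ± 0.710) overlapped glyctk, and the minor GRHPR gene (6.95 ± 1.51) overlapped AMT.

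Ratios between enzymes within a library do not depend on how libraries were scaled. They were formed from FPKM summed over the genes of a name, and 4 ratios were compared by the exact permutation test, whose smallest two-sided p for 3 against 3 libraries is 0.1. HAO1 makes glyoxylate and AGXT removes it. The log2 ratio of HAO1 to AGXT was -2.44, -2.45 and -2.50 in CG and -3.34, -3.20 and -3.51 in EG, a difference of -0.89. As geometric means, HAO1 was at 0.181 of the AGXT level in CG and at 0.0982 in EG. The log2 ratio of HAO1 to GRHPR was -0.68, -0.42 and -1.03 in CG and -1.94, -1.38 and -1.59 in EG, a difference of -0.93. In both ratios every EG pool was below every CG pool, and each exact test gave p = 0.1.

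The glycine cleavage system needs AMT together with GLDC, the glycine decarboxylase, and the log2 ratio of AMT to GLDC also had groups that did not overlap. It was -1.54, -1.61 and -0.998 in CG and -3.07, -2.86 and -2.76 in EG, a difference of -1.51 (exact p = 0.1). The log2 ratio of SHMT2 to its cytosolic counterpart SHMT1 was 2.44, 2.29 and 3.14 in CG and 1.56, 1.69 and 1.32 in EG, a difference of -1.10 (exact p = 0.1). SHMT2 was at 6.15 times the SHMT1 FPKM in CG and at 2.88 times in EG. With 4 ratios tested, the adjusted p of each was also 0.1, and none can pass 0.05 in this design. HAO1, AMT and the main SHMT2 gene were already lower as single genes, so these ratios are not separate evidence of a fall. The share of other gene pairs with groups apart was not taken.

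**Figure D3:**
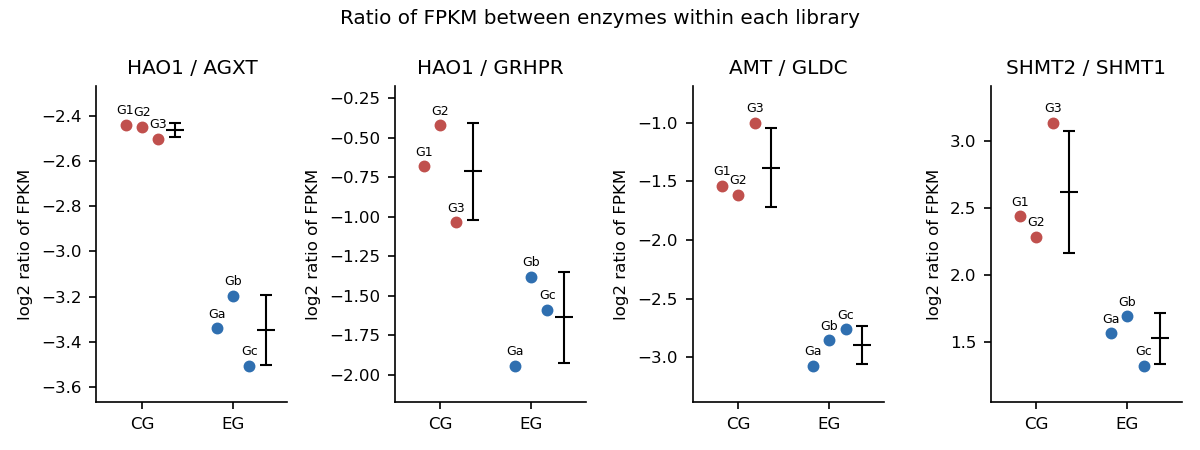
Log2 ratio of summed FPKM between pairs of enzymes (y axes, each with its own range) in each library, with CG in red, EG in blue and the group mean ± SD (n = 3) in black. In all 4 panels the 3 EG points lie below the 3 CG points, and the widest gap between group means is that of AMT to GLDC.

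The wider pathways did not move as one. Outside the 9 genes, 78 tested genes matched 7 lists of glyoxylate, glycine, serine, folate, transport and peroxisome genes. Of these, 15 were lower, 10 were higher and 53 did not pass, with a median log2 fold change of -0.04, close to that of all tested genes. The background for these counts, and for those of each pathway and marker list below, was 21.7% of tested genes lower and 23.7% higher. The lists and their members were chosen with results of these data known.

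In the list of glyoxylate formation and removal, 4 of 13 other genes were lower, 2 were higher and 7 did not pass. Both genes for catalase, the peroxisomal enzyme that breaks down hydrogen peroxide, fell. The cat gene fugu_GLEAN_10012999 went from 51.3, 45.6 and 53.8 CPM in CG to 15.2, 8.80 and 16.2 CPM in EG (log2 fold change -1.91, SE 0.24, adjusted p 0.00057), and the cat gene fugu_GLEAN_10001205 went from 41.9 ± 7.09 to 15.3 ± 7.08 CPM (-1.45, SE 0.34). In both, the EG pool with the least was Gb. PRODH2, a hydroxyproline dehydrogenase that starts another route to glyoxylate, fell from 48.9 ± 4.70 to 25.0 ± 6.18 CPM (-0.96, SE 0.20, adjusted p 0.0057). AGXT2, a mitochondrial aminotransferase that can also use glyoxylate, fell 1.49-fold (-0.58, SE 0.16, adjusted p 0.018), a call lost without G1, G2, Ga or Gb. HAO2, the relative of HAO1 that oxidises longer hydroxy acids, overlapped between the groups (6.25 ± 1.45 and 5.57 ± 2.49 CPM, log2 fold change -0.17, adjusted p 0.74).

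Lactate dehydrogenase moved the other way. The ldha gene fugu_GLEAN_10017581 was at 19.0, 10.7 and 11.4 CPM in CG and at 390, 153 and 124 CPM in EG. Even the lowest EG pool was more than 6 times the highest CG pool, and Ga was the highest. The log2 fold change was 4.02 (SE 0.49, adjusted p 0.00054). The ldhb gene fugu_GLEAN_10003505 had 2 reads in the CG libraries together and 201 in the EG libraries, a ratio of 117 per unit of library size (95% exact interval 32.1 to 977, counting error only), and its level stayed under 3 CPM. A second ldha gene had no read in any library.

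The list of glycine cleavage and lipoate attachment held AMT as its only gene that fell. Of the 7 others, 1 was higher and 6 did not pass. GLDC, which takes the carboxyl group from glycine, was at 240, 212 and 161 CPM in CG and at 226, 196 and 194 CPM in EG (log2 fold change 0.01, SE 0.18, adjusted p 0.98). The H-protein gene GCSH that carries the intermediate was at 60.2 ± 7.77 CPM in CG and at 49.0 ± 10.1 in EG (fugu_GLEAN_10017213, -0.30, adjusted p 0.23). GCSH passed as lower with library totals (-0.65, adjusted p 0.021), hepatocyte scaling (0.014) and both limma settings (0.018 and 0.017), in a range from 0.014 to 0.52. Its second gene stayed under 6 CPM. DLD, the lipoamide dehydrogenase that the system shares with other complexes, rose from 61.8 ± 3.82 to 105 ± 12.5 CPM (0.77, SE 0.15, adjusted p 0.0039). This call was lost with library totals (0.44, adjusted p 0.075), hepatocyte scaling (0.15) and both limma settings (0.075 and 0.074). The adjusted p ran from 1.2e-05 to 0.15 over the alternatives.

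Of 17 other folate one-carbon genes, 4 were higher, 2 were lower and 11 did not pass. FPGS, which adds glutamate residues to folate, rose from 36.8, 31.3 and 39.3 CPM in CG to 529, 227 and 148 CPM in EG (log2 fold change 3.07, SE 0.44, adjusted p 0.0011). ATIC, an enzyme of purine synthesis that uses formyl folate, rose 1.61-fold and aldh1l1, which oxidises formyl folate, rose 1.62-fold. The calls of both ATIC and aldh1l1 were lost with library totals, hepatocyte scaling and both limma settings, and that of aldh1l1 also with upper quartile factors and without G1, G3, Gb or Gc. MTHFD1 interconverts one-carbon folates in the cytosol. Its gene fugu_GLEAN_10007932 fell from 42.0 ± 2.55 to 20.5 ± 5.16 CPM (-1.03, SE 0.19, adjusted p 0.0036). A second MTHFD1 gene, fugu_GLEAN_10003044, did not pass (-0.44). MTHFS, which returns 5-formyltetrahydrofolate to the pool, fell 1.93-fold. SHMT1 was at 55.4, 65.4 and 33.0 CPM in CG and at 55.1, 48.6 and 94.0 CPM in EG, with overlap and an adjusted p of 0.38.

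Of 9 genes for serine synthesis and breakdown, 1 was higher and 8 did not pass (0 lower by edgeR and by DESeq2, 1 lower at an unadjusted p under 0.05). The higher gene was 1 of 2 genes for CBS, which condenses serine with homocysteine. This CBS gene, fugu_GLEAN_10003424, rose from 154 ± 13.1 to 317 ± 74.6 CPM (log2 fold change 1.04, SE 0.20, adjusted p 0.0037). The other CBS gene, fugu_GLEAN_10002430, did not pass (log2 fold change -0.08). No gene matched PHGDH, the first enzyme of serine synthesis.

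A further list held 13 genes that form or use glycine, or act on choline, betaine aldehyde or betaine. Of them, 4 were lower and 9 did not pass (0 higher by edgeR, 1 by DESeq2 and 1 at an unadjusted p under 0.05). Genes for choline oxidation and for dimethylglycine breakdown were among them, while both bhmt genes, for the enzyme that takes the first methyl group from betaine, did not pass (log2 fold changes 0.54 and 0.15; named after their values were seen). Chdh, the choline dehydrogenase, fell from 56.9, 71.3 and 67.8 CPM to 15.8, 14.2 and 21.9 CPM (log2 fold change -1.91, SE 0.20), and ALDH7A1, which can oxidise betaine aldehyde, fell from 47.0 ± 2.80 to 17.0 ± 3.16 CPM (-1.47, SE 0.17). Dmgdh, which turns dimethylglycine into sarcosine, fell 5.17-fold, from 65.2, 71.7 and 65.2 CPM to 16.0, 9.11 and 14.0 CPM (-2.37, SE 0.22, adjusted p 0.00016). The step after it did not follow: the Sardh genes, for sarcosine dehydrogenase, had log2 fold changes of -0.09 and -0.14, and Gnmt, which methylates glycine to sarcosine, had -0.03, with overlap in all 3. BAAT, which joins bile acids to glycine or taurine, fell 1.88-fold from under 6 CPM, and this call was lost without any one of G1, G2, G3, Ga or Gb.

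Among 7 tested transport genes, 2 were higher and 2 were lower. Slc26a1, a sulfate and oxalate exchanger, rose 1.72-fold (log2 fold change 0.79, SE 0.17, adjusted p 0.0076), a call lost with library totals, hepatocyte scaling and both limma settings. slc25a38b, related to a mitochondrial glycine carrier, fell from 38.7 ± 1.31 to 23.2 ± 0.724 CPM (-0.74, SE 0.12, adjusted p 0.0021). The SFXN1 genes, for a mitochondrial serine carrier, went opposite ways, at 0.83 (fugu_GLEAN_10000581) and -0.95 (fugu_GLEAN_10003344), and both calls were lost without G1. The higher SFXN1 call was also lost without G3 or Ga and with library totals, upper quartile factors, hepatocyte scaling and both limma settings.

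HAO1 works inside peroxisomes, as AGXT does in humans. Both AGXT genes here matched a Felis catus entry labelled mitochondrial, and where their products lie was not tested. Of 12 tested peroxisome assembly genes, 3 were lower and 9 did not pass (0 higher by edgeR and by DESeq2, 1 higher at an unadjusted p under 0.05). PEX5, the receptor that imports peroxisomal enzymes, was at 23.8, 24.6 and 23.1 CPM in CG and at 4.83, 9.43 and 9.33 CPM in EG, a 3.03-fold fall (log2 fold change -1.60, SE 0.25, adjusted p 0.0017). PEX11A, linked to peroxisome division, fell 1.78-fold, a call lost without any one of G1, G2, G3, Ga or Gb. PEX26 fell too, but from below 1 CPM, on 0 to 25 counts per library, and its call was lost with no low-count filter and without any one of G1, G2, G3, Ga or Gc.

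**Figure D4:**
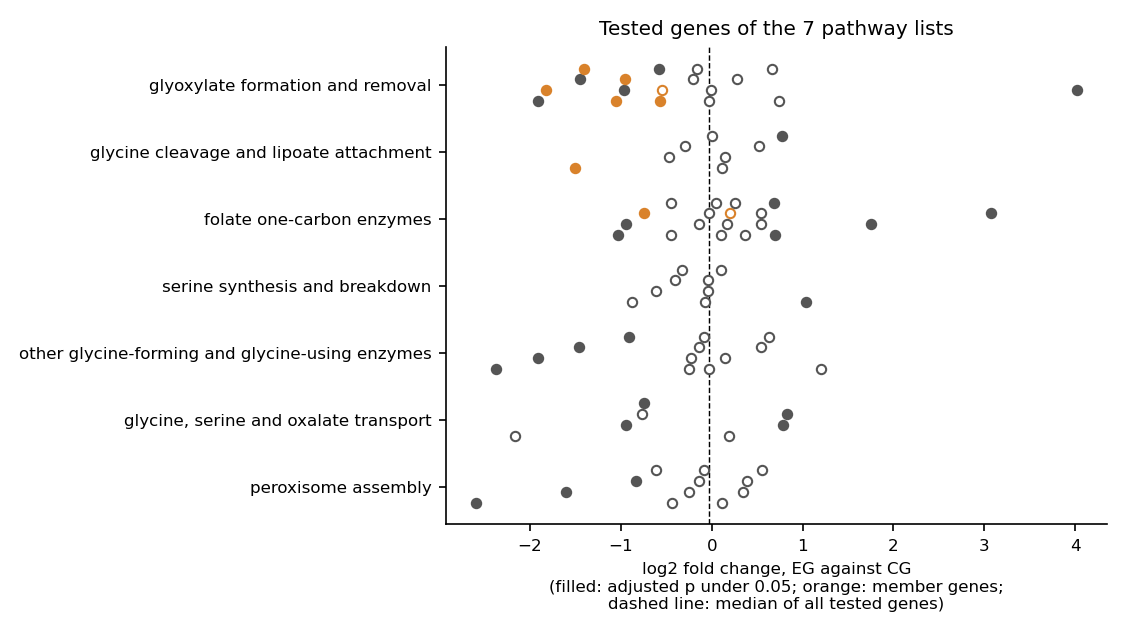
Log2 fold change of EG against CG (x axis) for every tested gene of the 7 pathway lists (rows), with the 9 genes in orange, other genes in grey, filled points for an adjusted p under 0.05 and a dashed line at the median of all tested genes; ldhb, with 2 reads in CG, is not drawn. The orange points lie mostly left of the line, while the grey points of most lists lie on both sides of it, with ldha at 4.02 and FPGS at 3.07 farthest to the right.

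Markers of liver cells and of other cells moved as follows. Of 18 hepatocyte marker genes, 9 were higher and 9 did not pass (0 lower by edgeR, also unadjusted, and by DESeq2), and their summed level was 231862 to 256484 CPM in CG and 276992 to 335455 CPM in EG. The largest part of this sum was the tf gene, which did not pass (142798 ± 19972 CPM in CG and 151210 ± 12274 CPM in EG). The sum depends on the scaling, since CPM used TMM factors of 1.10 to 1.15 in CG and 0.824 to 0.973 in EG. It was not taken without these factors. An alternative chosen after seeing the data scaled the libraries to the geometric mean of the hepatocyte marker counts, not to their sum. Under it 8 of the 9 genes were lower, and HAO1 had a log2 fold change of -2.21. Exocrine pancreas markers ranged from 5348 to 22934 CPM in CG and from 572 to 20041 CPM in EG, and 0 of 11 passed edgeR, also unadjusted, or DESeq2. The lowest sum was that of Gb. The CELA2A gene fugu_GLEAN_10009801, for example, was at 4022, 5034 and 1176 CPM in G1, G2 and G3. In Ga, Gb and Gc it was at 3633, 90.2 and 4602 CPM.

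Other marker lists were smaller in sum in EG or overlapped. Erythrocyte markers had 4 of 8 lower by edgeR, 6 at an unadjusted p under 0.05 and 7 by DESeq2. They summed to 6376 to 16130 CPM in CG and 3594 to 6996 CPM in EG. Leukocyte markers, with 4 of 7 lower, summed to 62.3 to 97.5 CPM and 24.2 to 49.6 CPM. Endothelial and stellate markers, with 3 of 17 lower, summed to 1273 to 1700 CPM in CG and 819 to 1467 CPM in EG. In that list 1 Col1a2 gene and 1 DES gene had no read. Other genes of both names had reads, and col1a2 gene fugu_GLEAN_10016064 was at 494 ± 72.9 CPM in CG and 382 ± 143 CPM in EG. Biliary and gut markers, with 1 of 12 lower, summed to 506 to 578 CPM in CG and 476 to 567 CPM in EG. There 1 Fabp2, 1 KRT19 and 1 krt18 gene had no read. Another krt18 gene, fugu_GLEAN_10016229, was at 317 ± 21.5 CPM in CG and 324 ± 24.1 CPM in EG. Single genes of the biliary and gut list set Gb apart in both directions. CDH17 (fugu_GLEAN_10011320) was at 1.62, 0.511 and 0.616 CPM in CG and at 0.427, 29.1 and 0.790 CPM in Ga, Gb and Gc. CFTR was at 4.92, 6.83 and 1.06 CPM in CG and at 0.853, 0.0953 and 3.01 CPM in Ga, Gb and Gc. Neither gene passed the test. The part of the cells of these lists in the falls described here was not tested.

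**Figure D5:**
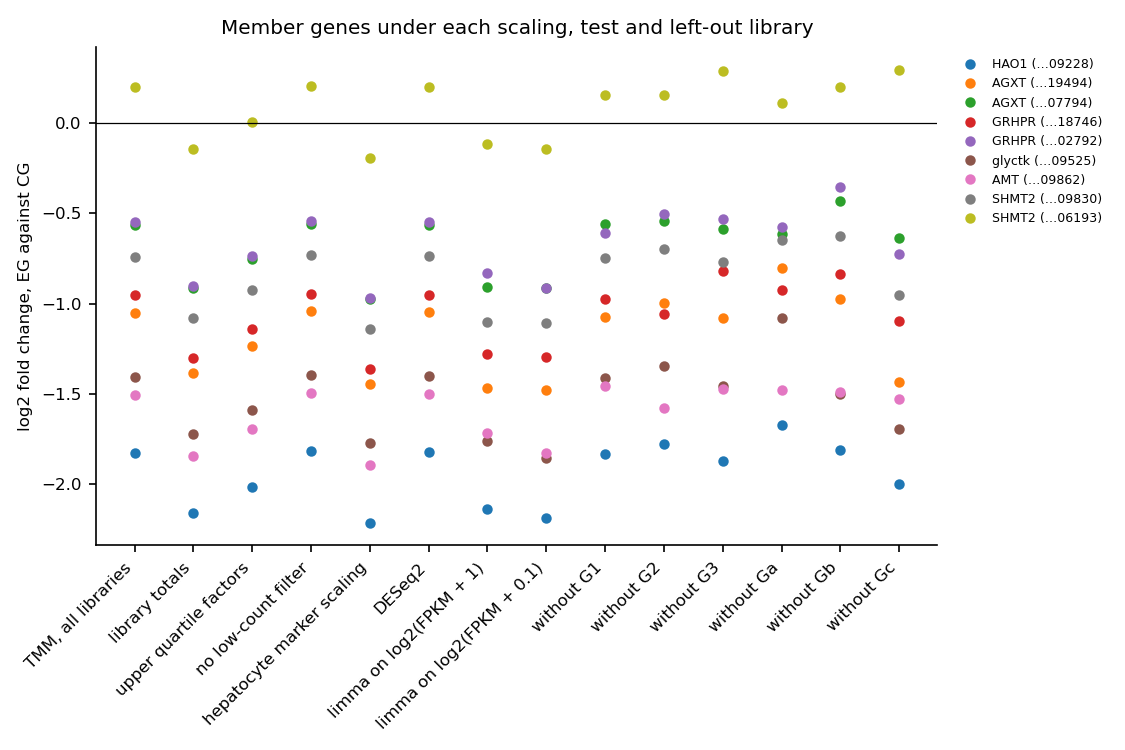
Log2 fold change of EG against CG (y axis) of the 9 genes under each scaling or test and with each library left out (x axis). HAO1 stays lowest in every column, 8 genes stay below 0 throughout, and the minor SHMT2 gene is the one that lies on both sides of 0.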

How the data were processed

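RNA from 6 pools of livers (3 CG, 3 EG) was sequenced as paired-end reads. The authors aligned the reads with HISAT2 2.0.4 to an unpublished T. fasciatus genome, whose build is not given in the sources used here. The deposited raw counts and the FPKM values of the authors come from RSEM 1.2.3, and 97.6% of FPKM values lay within 0.1% of count divided by length and library total. Of the lengths, 96.6% were multiples of 3, so they are close to coding lengths. Columns of the authors' own DESeq comparison (group signals, fold changes, p-values) were not used. A further table line was not used here.

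Counts were tested with edgeR 4.0.16 (R 4.3.3): filterByExpr, TMM factors, quasi-likelihood F test of EG against CG, Benjamini-Hochberg adjustment over 14357 genes. The common biological coefficient of variation was 29.6%. CPM (counts scaled to a common library size) used the TMM factors. An SE is the log2 fold change divided by the square root of F. Groups were apart when the ranges of CG and EG did not overlap. Ratios used log2 of summed FPKM with 0.1 added. The code was tested on simulated data.

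Alternatives were library totals, upper quartile factors, DESeq2 1.42.0, no low-count filter, limma 3.58.1 on log2(FPKM + 1) and log2(FPKM + 0.1), a fold over 2, and each library left out. Scaling to hepatocyte markers was added after seeing the data.

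All 9 genes are named with every library's value. From each pathway list the called genes with the 4 largest log2 fold changes in each direction are named, except 1 gene that is not reported here. HAO2, AGXT2, HOGA1, PRODH2, LDHA, CAT, GLDC, GCSH, DLD, SHMT1, PHGDH, GNMT and SARDH are named whatever their values, and no gene matched HOGA1 or PHGDH. Of genes that shared a symbol with a list, 2 were left out because their Swiss-Prot protein was another one. For each of the 9 genes, the 2 genes with the most similar pattern may be named. The members and lists were chosen with earlier results of these data known.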

Additional observations from a re-analysis of the deposited data

How the results depend on the processing

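Of the log2 fold changes of the 9 genes under the alternatives, 108 kept direction and side of the threshold, 6 came to pass it, 8 no longer passed it and 4 turned sign. The number of the 9 genes lower in EG was 7, and 4 to 8 with 1 library left out, with 4 without G2. With a fold over 2 it was 4. None of the 9 was higher under any alternative. The 4 ratios kept their direction with nothing added to FPKM, with summed counts and with each library left out, and moved by less than 1 SD between libraries.

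Over all tested genes, those higher in EG numbered 3398, against 2024 with library totals, 1744 with hepatocyte marker scaling, 1962 and 1970 with limma on log2(FPKM + 1) and log2(FPKM + 0.1), and 1961 with a fold over 2. Those lower numbered 3113, against 4754 and 4700 with the 2 limma settings. They numbered 4514 with library totals, 4619 with hepatocyte marker scaling, 3902 with upper quartile factors and 2208 with a fold over 2.

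The sign turned only for genes that had not passed. With library totals, hepatocyte scaling and the 2 limma settings, the log2 fold change of SHMT2 (fugu_GLEAN_10006193) was -0.14, -0.19, -0.12 and -0.14. That of GCSH (fugu_GLEAN_10007052) was -0.22, -0.28, -0.19 and -0.21, and -0.077 with upper quartile factors. That of GLDC was -0.33, -0.38, -0.31 and -0.32, and -0.18 with upper quartile factors. SHMT1 was at -0.045 with hepatocyte scaling. With 1 library left out, the log2 fold change ranged from -0.43 to 0.17 for HAO2, from -0.14 to 0.14 for GLDC, from -0.24 to 0.20 for Gnmt, and from -0.40 to 0.20 and from -0.47 to 0.12 for the Sardh genes. The cause was not tested. No paired analysis was possible because the replicates of the groups share no label (1, 2 and 3 against a, b and c). The minor GRHPR and SHMT2 genes rest on 159 to 464 counts per library, which limits their precision.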

Other observations

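Genes whose log2 CPM followed a member most closely over the 6 libraries were looked up as a description, with no test, since libraries of 2 groups give high correlations for any pair of genes that differ between the groups. For HAO1 they were NFI1 (Pearson r = 0.9998) and MTMR7 (r = 0.9994), for AMT SSUH2 (r = 0.9994) and GLT8D2 (r = 0.9989), and for the main SHMT2 gene Angptl2 and TNS2. Between members, HAO1 was most like AMT (r = 0.97) and the main AGXT gene most like glyctk (r = 0.97), over the same 6 libraries.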
